A study of Mus musculus with 8 samples.

Results

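Neuroendocrine secretory granule genes were examined in the pancreatic lymph node of mice lacking Deaf1, a transcription factor of peripheral lymphoid tissue. The 10 members were chosen by gene name, with earlier results of these arrays in view, and are Scg2, Scg3, Scg5, Chga, Chgb, Pcsk1, Pcsk2, Pcsk1n, Cpe and Vgf. Of these 10, 9 were named in the annotation of the arrays, by 15 probes on 24 spots, and Vgf was not analysed here. The values that the choice rested on are the detection flags, the levels and the log2 ratios given below, so those values are a description. After a filter on dim probes, 7 members stood among 18410 genes tested.

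On each of 8 microarrays of 2 colours, RNA of 1 Deaf1 knockout mouse was labelled with Cy5. Pooled RNA of its wild-type littermates, matched for age, was labelled with Cy3, and all mice were of the BALB/c strain. There were 2 knockout mice of 4 weeks, set against a pool of 2 wild-type mice, and 3 each of 12 and 30 weeks, set against pools of 3. The labels state neither which part of Deaf1 was deleted nor the sex of the mice, and no array had its dyes swapped. No wild-type mouse was set against a pool, so the spread of the controls is in no test. That the arrays of an age share 1 pool is an assumption, under which age and pool cannot be told apart. The 4-week arrays also lay on a slide and scanner of their own, read with an earlier software version.

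Neuroendocrine cells store peptide hormones in dense-core granules. Granins (Chga, Chgb, Scg2, Scg3) help hormones to condense there, and the prohormone convertases PC1/3 (Pcsk1) and PC2 (Pcsk2) cut the precursors at pairs of basic residues. The chaperone 7B2 (Scg5) escorts PC2 and keeps it inactive until late in the pathway, proSAAS (Pcsk1n) inhibits PC1/3, and carboxypeptidase E (Cpe) trims the basic residues that the cuts leave behind. Cpe and Scg5 are also transcribed in cells without such granules.

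The members called at 4 or 30 weeks that have a promoter window in the RefSeq table (GRCm38.p6) are Chgb, Scg5 and Pcsk2. The 250 bases before their starts are shown to set the letters beside the measurements. Capitals mark TGACG on either strand, the core of the cyclic AMP response element.
Chgb, chr2:132781392-132781641, plus strand: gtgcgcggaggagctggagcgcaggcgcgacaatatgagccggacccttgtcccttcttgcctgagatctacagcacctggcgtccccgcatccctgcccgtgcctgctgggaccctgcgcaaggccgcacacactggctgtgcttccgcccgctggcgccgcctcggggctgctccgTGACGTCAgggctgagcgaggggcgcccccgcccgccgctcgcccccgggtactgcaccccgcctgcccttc
Scg5, chr2:113829092-113829341, minus strand: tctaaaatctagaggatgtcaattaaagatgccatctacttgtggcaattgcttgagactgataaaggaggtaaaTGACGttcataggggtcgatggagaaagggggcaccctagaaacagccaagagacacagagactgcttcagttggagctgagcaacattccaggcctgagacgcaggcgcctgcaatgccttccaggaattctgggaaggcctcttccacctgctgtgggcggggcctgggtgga
Pcsk2, chr2:143545883-143546132, plus strand: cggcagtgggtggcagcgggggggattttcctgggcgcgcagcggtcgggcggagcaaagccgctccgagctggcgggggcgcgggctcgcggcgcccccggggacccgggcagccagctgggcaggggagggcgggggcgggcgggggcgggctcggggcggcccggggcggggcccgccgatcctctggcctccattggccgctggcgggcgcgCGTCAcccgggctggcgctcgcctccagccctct

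Windows were found for 8 of the 10 members. TGACG on either strand was found in 7 of these 8, Chga, Chgb, Pcsk1, Pcsk2, Scg2, Scg3 and Scg5, against 17.8% of all 32851 windows. The full palindrome TGACGTCA, which contains TGACG on both strands, was found in Chgb, Pcsk1 and Scg2, where it began 72, 78 and 68 bases before the start, against 1.55% of all windows. TTCGG, which is the TTCG core that Deaf1 binds with a following G, was found on either strand in Chga alone, against 15.8% of windows. The shorter TTCG was not counted over all windows, and it also stands in the windows of Pcsk1 and Scg2. TTCAGCACC, a part of the RE1 site of the repressor Rest, was found in none of the 8 and in 0.301% of all windows, and TATAAA in none of the 8 and in 12.4%. These matches are letters in a window, and no binding was measured.

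Each of the 15 member probes is 60 bases long. For Cpe the results turn on a pair of probes that lie close together on chromosome 8 of mm8, the build of the files. Probe A_52_P78417 spans 1735 bases, from 67485410 to 67487144 on the minus strand, so it bridges an intron and reads spliced RNA. It is shown because the call for Cpe at 30 weeks rests on it.
Cpe A_52_P78417: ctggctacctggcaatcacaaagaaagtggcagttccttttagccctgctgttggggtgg

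Probe A_51_P246001 lies nearer the end of the gene, at 67485215 to 67485274, and has 35.0% G and C against 53.3% in the first. The Scg5 probe lies at chr2:113577293-113577352 and the Chgb probe at chr2:132486408-132486467, also in mm8.

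Replicates are separate knockout mice by the labels. The scanner flagged 46.8% to 71.4% of probes as well above background in the knockout channel and 37.2% to 62.6% in the wild-type channel, with the lowest share of both on replicate 2 of 4 weeks. A probe on several spots counts as well above background where most of its spots do. All 10 lymphocyte markers were well above background on 7 arrays, and 9 of 10 on replicate 2 of 4 weeks. Replicates 2 of 12 weeks and of 30 weeks stand apart. In the former Xist had a ratio of 5.32 and Ddx3y one of −3.89, so its mouse differed from its pool in sex-linked genes. The ages differ in these genes too. Xist, transcribed from the inactive X chromosome, had levels of 7.55 to 7.71 in the 12-week pools and 7.31 and 7.88 in replicates 1 and 3 of 12 weeks, against 12.42 to 13.82 in both channels at 4 and 30 weeks. Ddx3y, on the Y chromosome, had levels of 9.05 to 9.17 and of 10.08 and 9.68 in those same channels, and was not well above background at 4 or 30 weeks. Age and sex therefore cannot be told apart in any comparison of 12 weeks with another age. In the latter the 15 pancreatic acinar genes had a median ratio of 3.95, against −4.09 and −4.59 in replicates 1 and 3. Of 3 Deaf1 probes, 2 passed detection, with ratios of −0.22 to 0.35 and −0.74 to 3.11, the last on replicate 2 of 30 weeks. Since the deleted part is not stated, they do not check the genotype.

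Few of the members were measured well. Scg5, both Cpe probes and probe A_52_P496202 of Pcsk1n were well above background in both channels of all 8 arrays. Scg3 and probe A_51_P229613 of Pcsk2 were so on 8 arrays in the knockout channel and on 7 in the wild-type channel, and Chga on 7 and 5. Chgb was well above background in the knockout channel of 5 arrays and in the wild-type channel of none. Scg2 stayed below that mark on every array, and Pcsk1 was so on 1 array, in the knockout channel, by 1 of its 2 probes. Second probes for Chgb and Pcsk2 and probe A_52_P459657 of Pcsk1n were not well above background anywhere. In whole nodes, fewer cells of a type and less RNA per cell cannot be told apart.

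**Figure D1:**
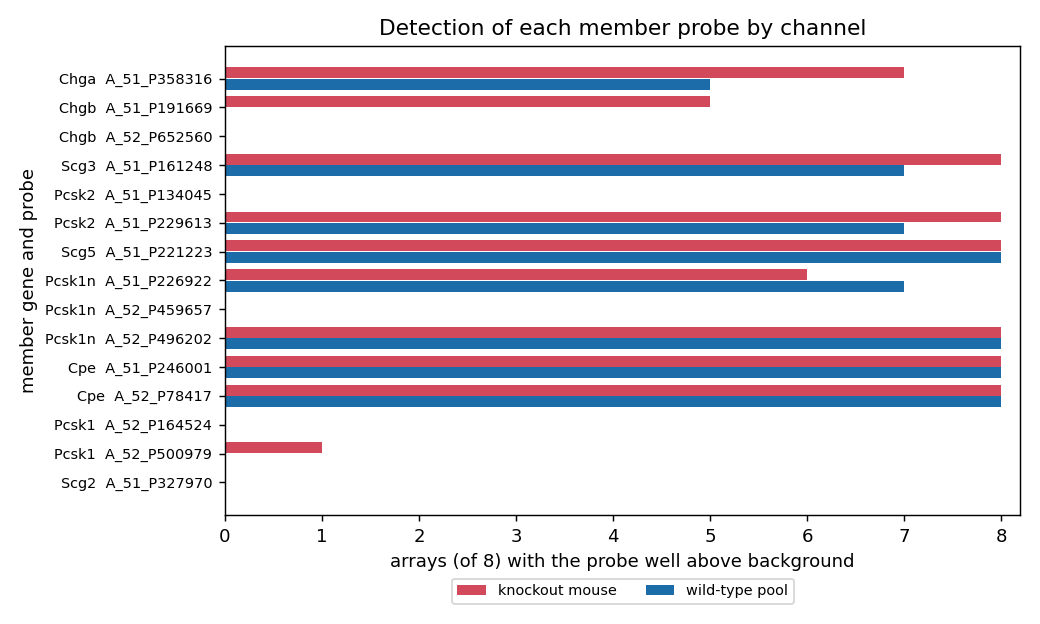
Number of arrays, of 8, on which each of the 15 member probes was well above background, by channel (red, knockout mouse; blue, wild-type pool). The bars reach 8 in both channels for Scg5, both Cpe probes and 1 Pcsk1n probe, and Chgb and Pcsk1 have bars in the knockout channel alone.

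Ratios are log2 of knockout over wild-type pool after normexp background correction and loess, given with the standard error of a limma fit over all genes. A gene was called at a Benjamini-Hochberg adjusted p under 0.05. At 4 weeks 2 of the 7 members tested were called, 1 higher (Chgb) and 1 lower (Scg5). Over all genes 22.7% were called at 4 weeks, 15.3% higher and 7.37% lower. At 12 weeks 0 of 7 were called by limma, and 2 had an unadjusted p under 0.05, against 2.61% of all genes called, 1.24% higher and 1.37% lower. At 30 weeks 2 of 7 were called, 1 higher (Pcsk2) and 1 lower (Cpe), against 39.1% of all genes, 20.7% higher and 18.4% lower. The members' medians were −0.04, 0.14 and 0.06 at 4, 12 and 30 weeks, beside 0.02, 0.02 and 0.03 over all genes. The members were chosen from these contrasts, so nothing is read from the counts.

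**Figure D2:**
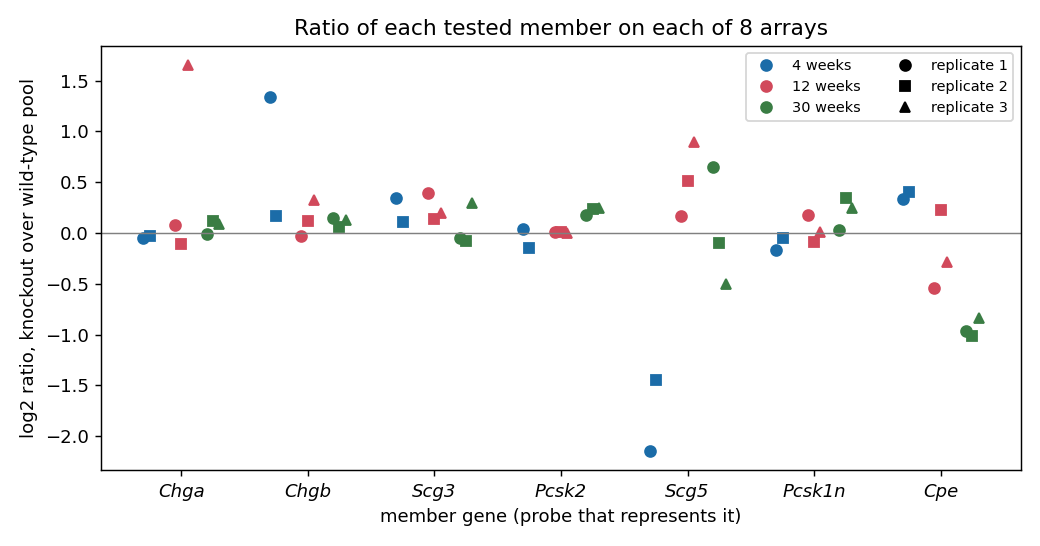
Log2 ratio of knockout over wild-type pool on each of 8 arrays for the 7 members tested (colour, age; symbol, replicate). Scg5 at 4 weeks (−2.15 and −1.45) lies below all other points, and Chgb in replicate 1 of 4 weeks (1.34) and Chga in replicate 3 of 12 weeks (1.65) stand above the other points of their gene.

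Differences between ages were called for Scg5 and Cpe, on the same ratios that the members were chosen from. For 12 minus 4 weeks 1 of 7 members was called (Scg5), against 6.99% of all genes. This difference and that of 30 minus 12 weeks also set apart arrays whose sex-linked genes differ. For 30 minus 12 weeks 0 of 7 were called by limma, with 2 at an unadjusted p under 0.05, against 0.777% of all genes. For 30 minus 4 weeks 2 of 7 were called (Scg5 and Cpe), against 18.9% of all genes. Between ages, a dye bias shared by every array drops out.

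Single arrays decided several of these counts. Without replicate 1 of 4 weeks, 0 members were called at 4 weeks and for 12 minus 4 weeks and 1 (Cpe) for 30 minus 4 weeks. Without replicate 2 of 4 weeks, Chgb joined the calls for 12 minus 4 and 30 minus 4 weeks, giving 2 and 3. Without replicate 2 of 12 weeks, Cpe joined the calls at 4 weeks (3 in all), at 12 weeks (1) and for 12 minus 4 weeks (2). Without replicate 1 of 12 weeks, Cpe was called for 30 minus 12 weeks (1). The losses of Chgb and Pcsk2 are given with these genes.

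Among the granins, Chga, which drives granule formation, had ratios of −0.05 and −0.03 at 4 weeks, 0.08, −0.11 and 1.65 at 12 weeks, and −0.01, 0.12 and 0.09 at 30 weeks. A single mouse, replicate 3 of 12 weeks, stood apart, with a level of 8.13 in the knockout channel against 6.18 to 6.78 in the other 7. The mean at 12 weeks was 0.54 ± 0.28 (n = 3, adjusted p = 0.257) and fell to −0.01 without that mouse.

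In that mouse the other 6 members tested lay between −0.29 and 0.90. The 6 enterochromaffin and adrenal chromaffin markers had ratios of −0.38 to 0.10 there and the 12 islet markers −0.18 to 0.20. The 15 acinar genes had a median ratio of 0.62 in this mouse, against −0.33 and 0.22 in replicates 1 and 2, and the 11 adipocyte genes one of −0.04, against −1.41 and −1.49. Their part in the Chga value was not tested.

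Chgb, a second chromogranin, had ratios of 1.34 and 0.17 at 4 weeks, −0.03, 0.12 and 0.32 at 12 weeks, and 0.15, 0.06 and 0.13 at 30 weeks. The ratio was above 0 on 7 of 8 arrays, and the 4-week values overlap those of the later ages. The fitted value at 4 weeks was 0.75 ± 0.22 (n = 2, adjusted p = 0.0413). Chgb passed the filter through the knockout channel of 4 weeks, where it is high, so a difference there follows from the filter.

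The Chgb probe is printed on 10 spots, which show the detection more finely. In the knockout channel 10 and 6 spots were well above background at 4 weeks, 3, 10 and 10 at 12 weeks, and 6, 0 and 1 at 30 weeks. In the wild-type channel 2 spots of replicate 1 of 4 weeks were so and no others. More probes were above background in the knockout channel than in the wild-type channel on 7 of 8 arrays, and dyes were not swapped, so dye and genotype cannot be told apart here.

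The mean levels at 4 weeks, 7.57 against 6.82, differed 1.69-fold. The wild-type pool was not well above background, so its level is unsure, and no detection limit entered this fold. The fold is a mean of 2 arrays that differ, with ratios of 1.34 and 0.17, and is no sure minimum. The confidence limits of the fitted ratio were 0.25 and 1.26. The scanner's own log ratio handles dim spots differently. For the second Chgb probe, not well above background anywhere, it was 0 at every age. For the probe on 10 spots it gave 2.30 at 4 weeks, with 2.99 and 1.60 on its arrays. By that scale the other arrays had 0.12, 0.79 and 1.91 at 12 weeks and 1.47, 0.70 and 1.12 at 30 weeks. The call at 4 weeks was lost without replicate 1 of 4 weeks (0.17, adjusted p = 0.63), replicate 3 of 12 weeks (adjusted p = 0.0568) or replicate 1, 2 or 3 of 30 weeks (adjusted p = 0.0657, 0.0547 and 0.0668). It was also lost with no filter on dim probes (adjusted p = 0.052).

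**Figure D3:**
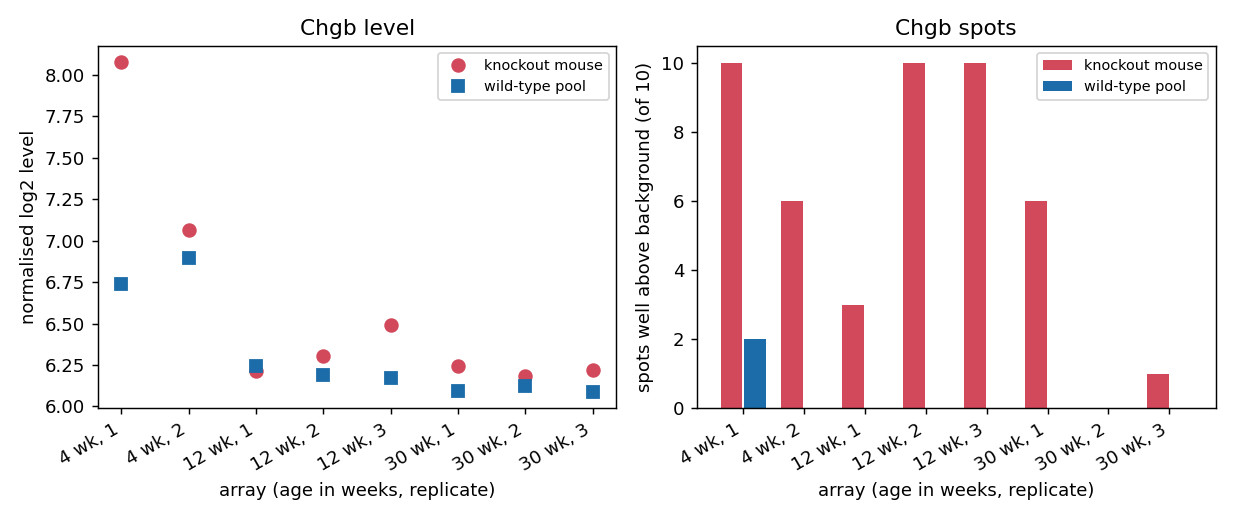
Chgb on each of 8 arrays. Left, normalised log2 level in the knockout (circles) and wild-type (squares) channel; right, how many of its 10 spots were well above background. The knockout level of replicate 1 of 4 weeks (8.07) is the highest, and wild-type spots were well above background on that array alone (2 of 10).

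Scg3, a granin that binds Chga, had ratios of 0.34 and 0.11 at 4 weeks, 0.39, 0.14 and 0.20 at 12 weeks, and −0.05, −0.08 and 0.29 at 30 weeks. Its levels lay between 6.93 and 7.33 in knockout mice and between 6.80 and 7.22 in the pools, so the channels overlap. The ratio was above 0 on all 5 arrays of 4 and 12 weeks and was not called at any age (0.22 ± 0.11, 0.24 ± 0.09 and 0.05 ± 0.09, adjusted p = 0.199, 0.154 and 0.685). Scg2, or secretogranin II, had ratios of −0.07 to 0.17 near the floor of detection in both channels, and no level is given for it.

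Of the convertases, Pcsk2 was measured and Pcsk1 almost not at all. Pcsk2 had ratios of 0.04 and −0.14 at 4 weeks, 0.01, 0.02 and −0.00 at 12 weeks, and 0.18, 0.24 and 0.24 at 30 weeks. The 3 values of 30 weeks lay above the 5 of the earlier ages. Its level was 6.89 and 7.12 in knockout mice at 4 weeks, 7.49 to 7.58 at 12 weeks and 7.64 to 7.83 at 30 weeks, against 6.84 and 7.27, 7.47 to 7.58, and 7.46 to 7.60 in the pools. The fitted ratio at 30 weeks was 0.22 ± 0.06 (n = 3, adjusted p = 0.0194), 1.16-fold higher in knockout. The call was lost without any 1 of the 30-week mice, with values of 0.24, 0.21 and 0.21 (adjusted p = 0.0694, 0.0798 and 0.108 without replicates 1, 2 and 3). The difference of 30 minus 12 weeks was 0.21 ± 0.08 (adjusted p = 0.2).

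Pcsk1 was well above background in 1 mouse, replicate 2 of 30 weeks, by probe A_52_P500979. Its ratio there was 0.99, against −0.17 to 0.16 on the other 7 arrays, and its level 7.16 against 5.92 to 6.18. By the scanner's log ratio the value was 4.74. The second Pcsk1 probe, which bridges an intron, had a ratio of 0.15 on that array and was not well above background. This is the array on which the acinar genes were high (summed log2 level of 21.66 in knockout against 17.71 in the pool). Of 12 islet markers, 3 were well above background in its knockout channel and 4 in its pool, against 5 in each other 30-week knockout mouse. Ins2 had a ratio of 0.25 there. The 33 peptide hormones and neuropeptides had a summed log2 level of 13.33 in this mouse, against 12.41 in its pool and 12.03 to 12.84 in the other knockout mice. Their part in the Pcsk1 value was not tested.

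Scg5, the PC2 chaperone, had the widest range of ratios among the 7 members tested. Its ratios were −2.15 and −1.45 at 4 weeks, 0.17, 0.51 and 0.90 at 12 weeks, and 0.65, −0.10 and −0.50 at 30 weeks. Both 4-week values lay below all 6 later ones, and at 30 weeks the mice lay on both sides of 0.

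The levels of both channels show where the 4-week difference sits. In the wild-type pool the Scg5 level was 10.02 and 10.06 at 4 weeks, 8.21, 8.30 and 8.27 at 12 weeks, and 8.11, 8.17 and 8.15 at 30 weeks. In knockout mice it was 7.88 and 8.61 at 4 weeks, 8.38, 8.81 and 9.17 at 12 weeks, and 8.77, 8.07 and 7.65 at 30 weeks. The 4-week pool stood above every other reading, while the 4-week knockout mice lay within the range of the older knockout mice. The pool level of 4 weeks comes from a pool of 2 mice, assumed to be the same on both arrays. It also comes from the slide, scanner and software of that age.

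**Figure D4:**
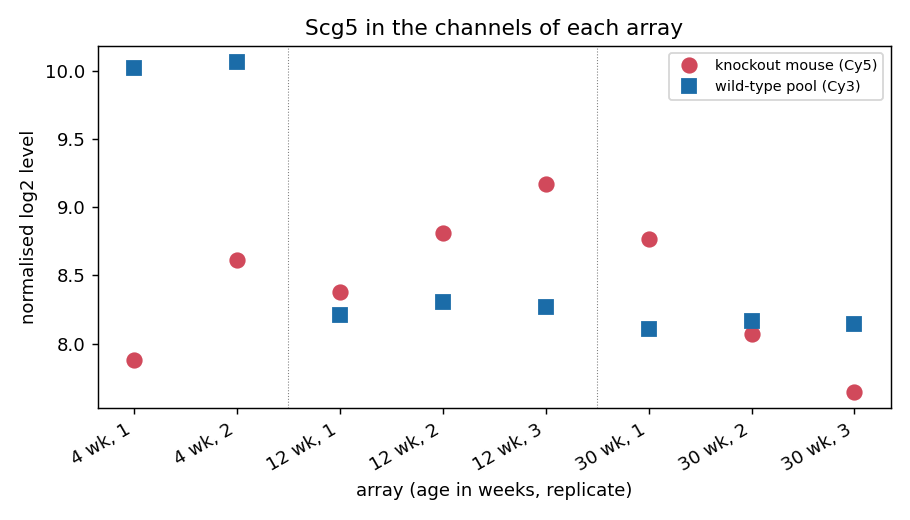
Normalised log2 level of Scg5 in the knockout (circles) and wild-type (squares) channel of each array, with dotted lines between ages. The wild-type pool reads 10.02 and 10.06 at 4 weeks and 8.11 to 8.30 later, and the knockout mice read 7.65 to 9.17 over all ages.

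The fit gave Scg5 a ratio of −1.80 ± 0.27 at 4 weeks (n = 2, adjusted p = 0.00339), 3.47-fold lower in knockout, 0.53 ± 0.22 at 12 weeks (n = 3, adjusted p = 0.186) and 0.02 ± 0.22 at 30 weeks (n = 3, adjusted p = 0.954). The ratio rose by 2.32 ± 0.35 from 4 to 12 weeks (adjusted p = 0.012) and by 1.82 ± 0.35 from 4 to 30 weeks (adjusted p = 0.0116). Replicate 1 of 4 weeks carried these calls: without it the ratio at 4 weeks was −1.45 (adjusted p = 0.104) and the differences were 1.97 (adjusted p = 0.139) and 1.47 (adjusted p = 0.113). When arrays were centred on their median in place of loess, the 4-week ratio was −1.04 and the median of all genes 0.49, and both differences missed the threshold (2.03 and 1.22, adjusted p = 0.0676 and 0.0586).

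Markers of other cells moved on the 4-week arrays as well, in both directions. The fibroblast genes had median ratios of 0.71 and 0.27 there and the endothelial genes 0.37 and 0.24, while the lists below had medians under 0. Dct, a melanocyte enzyme, had ratios of −4.71 and −1.85 at 4 weeks and −0.23 to 0.15 later, and was well above background there in the pool alone. The 7 melanocyte genes had median ratios of −0.69 and −0.12 at 4 weeks, with 6 and 2 genes well above background in the pool and 3 and 2 in the knockout mice, and Tyr was so on no array. Their summed log2 level was 11.16 and 10.23 in the 4-week pool, against 9.29 to 9.38 in the later pools and 9.32 to 9.72 in knockout mice. Dct alone read 10.49 and 8.86 in the 4-week pool. Mitf, of the same list, went the other way at 4 weeks, with ratios of 0.24 and 0.07. The 11 adipocyte genes had median ratios of −1.55 and −0.61 at 4 weeks, with 9 or 10 well above background in each channel and summed levels of 13.80 and 14.00 in knockout mice against 14.83 and 14.48 in the pool. The 15 acinar genes had −1.71 and −0.37, with 12 to 15 well above background and summed levels of 10.99 and 11.84 against 12.91 and 12.40. Called lower at 4 weeks were 0 of 15 acinar genes, 3 of 11 adipocyte genes and 2 of 4 melanocyte genes tested, against 7.37% of all genes. Of these lists 0 genes were called higher at that age. At 12 weeks adipocyte medians of −1.41, −1.49 and −0.04 stood beside Scg5 ratios of 0.17, 0.51 and 0.90. At 30 weeks acinar medians of −4.09, 3.95 and −4.59 stood beside Scg5 ratios of 0.65, −0.10 and −0.50. Their part in the Scg5 values was not tested.

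The 5 genes whose ratios were most like those of Scg5 over the 8 arrays, by the root mean square of the difference, were Hebp2 (0.599), Zbtb32 (0.608), Ahsg (0.62), Alas2 (0.622) and Ccl24 (0.626). Their mean ratios at 4 weeks were −1.35, −1.08, −1.05, −1.06 and −1.14, all smaller in size than that of Scg5. Their means were −0.19 to 0.28 at 12 weeks, against 0.53 for Scg5, and −0.57 to 0.20 at 30 weeks, against 0.02. All 5 lay below 0 at 4 weeks, as Scg5 did, which follows from picking them by likeness to it. The measure says nothing of a shared function or control.

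Pcsk1n, the proSAAS gene, had ratios of −0.17 and −0.05 at 4 weeks, 0.18, −0.09 and 0.01 at 12 weeks, and 0.03, 0.35 and 0.24 at 30 weeks by probe A_52_P496202. Both values of 4 weeks lay below all 3 of 30 weeks, the values of 12 weeks overlap both, and no age was called (−0.11 ± 0.10, 0.03 ± 0.08 and 0.21 ± 0.08, adjusted p = 0.468, 0.823 and 0.0738). Its level was 7.21 and 7.71 in knockout mice at 4 weeks and 7.94 to 8.54 later, and the pools read 7.38 and 7.77, then 7.89 to 8.19. Both genotypes thus read lower at 4 weeks, with the arrays of that age on another slide and scanner. A dimmer Pcsk1n probe, A_51_P226922, had ratios of −0.18 to 0.10.

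Cpe was well above background in both channels of all arrays, and its pair of probes moved together and apart. By A_52_P78417, the brighter on average, the ratios were 0.34 and 0.41 at 4 weeks, −0.54, 0.22 and −0.29 at 12 weeks, and −0.96, −1.02 and −0.83 at 30 weeks. All 3 values of 30 weeks lay below all others. The fit gave 0.37 ± 0.15 (n = 2, adjusted p = 0.117), −0.20 ± 0.12 (n = 3, adjusted p = 0.337) and −0.94 ± 0.12 (n = 3, adjusted p = 0.00137), the last 1.91-fold lower in knockout. From 4 to 30 weeks the ratio fell by 1.31 ± 0.20 (adjusted p = 0.00472).

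By A_51_P246001 the ratios were 0.85 and 0.78 at 4 weeks, 0.13, 0.47 and −0.14 at 12 weeks, and −0.25, −0.35 and −0.08 at 30 weeks. These again ran from above 0 at 4 weeks to below 0 at 30 weeks. On every array this probe gave the higher ratio, with a difference of A_52_P78417 minus A_51_P246001 of −0.75 to −0.15 and a median of −0.59. With every probe tested on its own, the gene's call moved: A_51_P246001 was called at 4 weeks (0.81 ± 0.13, adjusted p = 0.00438) and not at 30 weeks (−0.23 ± 0.11, adjusted p = 0.122), and A_52_P78417 at 30 weeks (−0.94 ± 0.12, adjusted p = 0.00103) and not at 4 weeks (adjusted p = 0.122). In that fit 19.2%, 3.35% and 40.1% of 27463 probes were called at 4, 12 and 30 weeks.

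The probes share a downward course across the ages and differ in where it crosses 0. Averaged over both, the ratio of Cpe was 0.59 at 4 weeks (adjusted p = 0.0188) and −0.58 at 30 weeks (adjusted p = 0.00492), and the difference of 30 minus 4 weeks −1.17 (adjusted p = 0.00532). Over all probes that passed, the median ratio was 0.12 at 4 and at 30 weeks for those with under 40% G and C, and −0.09 at both ages for those with 50% or more. The part of base composition in the gap between the Cpe probes was not tested.

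**Figure D5:**
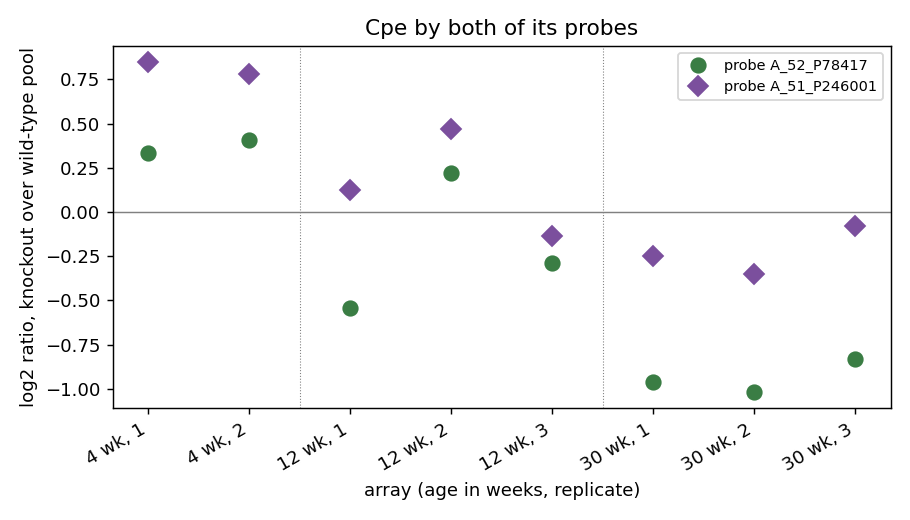
Log2 ratio of knockout over wild-type pool for Cpe on each array by both of its probes, with dotted lines between ages. A_51_P246001 (diamonds) lies above A_52_P78417 (circles) on every array, and both run from above 0 at 4 weeks to below 0 at 30 weeks.

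The levels of Cpe changed in the knockout channel more than in the pool by A_52_P78417: 10.87 and 11.33 at 4 weeks, 10.30 to 11.12 at 12 weeks and 10.07 to 10.25 at 30 weeks in knockout mice, against 10.53 and 10.93, 10.85 to 10.89, and 11.08 to 11.15 in the pools. At 30 weeks the channels did not overlap by this probe. By A_51_P246001 the knockout mice read 11.86 and 12.10 at 4 weeks and 10.22 to 10.34 at 30 weeks. The pools read 11.01 and 11.32, then 10.42 to 10.57. From 4 to 30 weeks the pool level thus went up by A_52_P78417 and down by A_51_P246001. Replicate 1 of 30 weeks shared its slide with the arrays of 12 weeks. Its ratio by A_52_P78417 was −0.96, below their −0.54 to 0.22. With slide as a fixed block the difference of 30 minus 12 weeks was −0.76 ± 0.29 (adjusted p = 0.73), against −0.73 ± 0.18 (adjusted p = 0.0869) without it. Without replicate 2 of 12 weeks, whose sex-linked genes differ from its pool, Cpe was also called at 12 weeks (−0.42, adjusted p = 0.0308). Without replicate 2 of 30 weeks the 30-week ratio was −0.90 (adjusted p = 0.00836), and the call held with any 1 of the 8 arrays removed. With the arrays centred on the median in place of loess, the ratios were 1.27, 0.44 and −0.61 at 4, 12 and 30 weeks (adjusted p = 0.00115, 0.061 and 0.0314), so the sign at 12 weeks turned.

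The 13 fibroblastic reticular and fibroblast genes, listed as other cells of the node, had median ratios of 0.71 and 0.27 at 4 weeks, −0.10, 0.02 and 0.07 at 12 weeks, and 0.23, 0.10 and 0.17 at 30 weeks. Their summed log2 level ran from 16.45 to 17.18 in knockout mice and from 16.30 to 16.97 in the pools. Of the 13, 12 or 13 were well above background on each array. Of the 13, 6 were called higher and 0 lower at 4 weeks, 1 and 0 at 12 weeks, and 2 and 2 at 30 weeks. Over all genes 15.3% were called higher and 7.37% lower at 4 weeks, 1.24% and 1.37% at 12 weeks, and 20.7% and 18.4% at 30 weeks. The list did not move as one at 30 weeks, where ratios ran from −1.97 to 0.89. Dpt, a matrix protein, had ratios of −1.97, −1.65 and −1.88 there, and Fn1, fibronectin, −0.36, −0.98 and −0.90. Of the other genes of the list, Col3a1, Pdgfra, Postn, Ccl19 and Pdpn lay below 0 on at least 1 of the 30-week arrays. The rest were above 0 on each 30-week array. Among the rest Col1a1 had 0.89, 0.39 and 0.39, Lum 0.43, 0.34 and 0.65, and Dcn 0.26, 0.22 and 0.59. The genes named here were chosen after their values were seen. Their part in the Cpe values was not tested.

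Markers of cells known for dense-core granules were detected in part. Of 12 islet endocrine markers, 1 to 5 were well above background in knockout mice and 0 to 4 in the pools, with summed log2 levels of 9.79 to 9.96 and 9.74 to 9.94. Sst, Ppy, Pdx1, Mafa, G6pc2 and Ucn3 were not so on any array. Of 14 neuron markers 2 to 8 were detected in knockout mice and 1 to 7 in the pools, with Elavl3, Gap43, Nefl, Snap25 and Th on no array and summed levels of 10.34 to 10.48 and 10.32 to 10.47. Of 6 enterochromaffin and adrenal chromaffin markers 1 to 5 were detected in each channel, 4 or 5 of them in both channels of every 12-week array and of replicates 1 and 3 of 30 weeks, and Th on no array, with summed levels of 9.09 to 9.53 and 9.23 to 9.43. The ranges of the channels overlap for each of the 3 lists, but the sums include genes not well above background, so little is read from this. At 30 weeks 2 of 4 islet markers tested were called higher and 0 lower, and 0 of 6 neuron markers higher and 1 lower. Of 4 enterochromaffin and adrenal chromaffin markers tested 0 were called. Over all genes 20.7% were called higher and 18.4% lower at that age. The name given to the members describes what the genes are known for.

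Other genes of the granule pathway were read from lists drawn up by known role, with earlier results of these arrays in view. For these lists, rose and fell mean higher and lower in knockout mice than in the pool of the same age. Of 36 genes of granule exocytosis and membrane, 22 were tested. At 4 weeks 2 were higher, 1 lower and 19 not called, at 12 weeks 0, 1 and 21, and at 30 weeks 4, 4 and 14, with medians of −0.01, −0.02 and 0.01. Beside these counts stand 22.7%, 2.61% and 39.1% of all genes called at 4, 12 and 30 weeks, and all-gene medians of 0.02, 0.02 and 0.03, and nothing particular to the list is read from them. Cplx2, a clamp of vesicle fusion, rose by 0.42 ± 0.11 at 4 weeks (adjusted p = 0.0301) and 0.41 ± 0.09 at 30 weeks (adjusted p = 0.00957), and Atp6ap2, a partner of the proton pump, by 0.79 ± 0.13 and 0.41 ± 0.10 (adjusted p = 0.00403 and 0.0139). Rab27a, a GTPase that docks granules, fell by 0.48 ± 0.07 at 30 weeks (adjusted p = 0.00168) while Rab3a, another, rose by 0.35 ± 0.09 (adjusted p = 0.0138). Atp6ap1, also a pump partner, fell by 0.74 ± 0.10 at 30 weeks (adjusted p = 0.00139), where Syp and Cadps2 also fell, by 0.25 and 0.18, and Atp6v0a1 rose by 0.39. Unc13a fell by 0.37 at 4 weeks and Vamp2 by 0.40 at 12 weeks. Ptprn, the granule autoantigen IA-2, was not called at any age (0.12, −0.01 and 0.10).

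Of 21 processing enzymes outside the members, 20 were tested, with 4 higher, 1 lower and 15 not called at 4 weeks, 0, 1 and 19 at 12 weeks, and 6, 3 and 11 at 30 weeks. Over all genes 22.7%, 2.61% and 39.1% were called. The medians of the list were 0.02, 0.01 and 0.13. Pam, which amidates peptides after Cpe has trimmed them, had ratios of 0.21 ± 0.14 and 0.37 ± 0.12 at 4 and 12 weeks (adjusted p = 0.324 and 0.107). At 30 weeks Pam had 0.69 ± 0.12 (adjusted p = 0.00301). Cpe was called lower at that age by 1 of its 2 probes. Furin, the convertase of the constitutive pathway, was not called (−0.26, −0.10 and 0.36, the last with adjusted p = 0.0502). Carboxypeptidases related to Cpe went both ways: Cpd rose by 0.39 ± 0.09 at 4 weeks (adjusted p = 0.0156), Cpz fell by 0.31 ± 0.08 and Aebp1 by 0.72 ± 0.10 at 30 weeks (adjusted p = 0.0194 and 0.00139). Cpxm1 fell by 1.34 ± 0.18 at 4 weeks and 0.70 ± 0.14 at 30 weeks (adjusted p = 0.00181 and 0.00612), and Cpxm2 by 1.41 ± 0.12 at 12 weeks (adjusted p = 0.00427). Tpp2, a peptidase, rose by 1.09 at 4 weeks and 0.55 at 30 weeks, Ctsl by 1.05 and Pcsk5 by 0.25 at 4 weeks, and Qpctl by 0.36 and Ece1 by 0.43 at 30 weeks.

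Of 35 peptide hormones and neuropeptides 33 were on the array and 20 were tested. None was called at 4 weeks by limma, 1 was higher at 12 weeks, and 3 were higher and 2 lower at 30 weeks, with medians of −0.004, 0.02 and 0.02, against 22.7%, 2.61% and 39.1% of all genes called. Adm, adrenomedullin, rose by 0.45 ± 0.08 at 12 weeks (adjusted p = 0.0321) and 0.28 ± 0.08 at 30 weeks (adjusted p = 0.0196). At 30 weeks Nmb rose by 0.31 and the islet peptide Iapp by 0.22, and Sct, secretin, fell by 0.70 and Nppb by 0.20. Of 16 regulators of neuroendocrine genes 11 were tested, and 2 were higher at 4 weeks, 0 at 12 weeks and 2 at 30 weeks, with none lower, against 15.3%, 1.24% and 20.7% of all genes higher. Creb1, which binds TGACGTCA, rose by 0.68 ± 0.10 at 4 weeks (adjusted p = 0.00312) and 0.35 ± 0.08 at 30 weeks (adjusted p = 0.0122). Prox1 rose by 0.73 at 4 weeks, Rcor1, a partner of Rest, by 0.34 at 30 weeks, and Rest itself was not called (0.19, 0.05 and 0.26). Prox1 also marks lymphatic endothelium, 1 of 11 endothelial markers, whose medians were 0.37 and 0.24 at 4 weeks.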

How the data were processed

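Arrays were scanned and read with Agilent Feature Extraction 9.5.3.1 (4 weeks) or 10.2.1.3 (12 and 30 weeks), per the file headers. The deposited intensity values are mean, background and processed signals of each spot, and the deposited log ratio of red over green is on the log10 scale. The deposited series matrix matched log2 of red over green processed signal (r of 0.99998 or more), red being knockout, and is not centred (medians −0.21 to 0.15). With limma 3.58.1 in R 4.3.3, signals were corrected by normexp (offset 50), loess-normalised within arrays with controls at weight 0, and spots of a probe averaged without flagged outliers. Levels were further made comparable between arrays by quantiles of mean brightness. Probes had to be flagged well above background on every array of an age, in 1 of the channels (27463 of 41174 probes), and a gene was read by its brightest kept probe (18410 genes). Names came from accessions for 24375 probes, current symbols for 6301, synonyms for 2426 and the file for 8072. A model with 1 mean per age (5 residual, 3.4 prior degrees of freedom) was fitted to all 8 arrays and tested against 0, two-sided, after being tested on simulated data. Of each list the text names the genes called at any age, at most 4 per direction and age by p, and always Pam, Rest, Ptprn and Furin. Likeness was computed for members with a mean ratio over 1 in size at any age. The members and lists were chosen with earlier results of these data known. Settings were changed 1 at a time. Coordinates are mm8, per the file headers. The number of arrays limits the precision.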

Additional observations from a re-analysis of the deposited data

Results flagged for a closer look

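The ratios below are among the values that the members were chosen from, so they are a description and no independent test. The fitted knockout over wild-type ratio of Scg5 differed between ages by 2.32 for 12 minus 4 weeks (adjusted p = 0.012, limma) and by 1.82 for 30 minus 4 weeks (adjusted p = 0.0116), with both 4-week mice below all 6 later ones. Sex-linked genes also differ between the arrays of 12 and of 4 weeks. The ratio of Cpe differed by −1.31 for 30 minus 4 weeks (adjusted p = 0.00472), with all 3 mice of 30 weeks below both of 4 weeks.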

How the results depend on the processing

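Across 121 alternative values of the 6 counts of members called, 93 lay within 1.5 times the count reported. With arrays centred on the median and no loess, the counts were 4 at 12 weeks, 0 for 12 minus 4 weeks and 1 for 30 minus 4 weeks. That setting moved the median of all genes to 0.49, 0.41 and 0.15 at 4, 12 and 30 weeks and turned the ratio of Cpe at 12 weeks to 0.44, that of Pcsk1n at 4 weeks to 0.19 and that of Chgb at 12 weeks to −0.14. With slide as a random block the counts were 4 at 12 weeks, 2 for 12 minus 4 weeks, 1 for 30 minus 12 weeks and 4 for 30 minus 4 weeks, with an estimated correlation of −0.259 within slides and 8980 genes called at 12 weeks against 481. Requiring detection on all 8 arrays, or no filter, left 1 member at 4 weeks. Replicate numbers are shared by the ages, and the deviations of the 7 same-numbered pairs correlated at −0.077 to 0.24, with 2 over 0.1. Deviations from an age mean depend on each other, and those of the 4-week arrays mirror each other (correlation of −1). These values therefore cannot settle whether the numbers pair the mice, and the main fit used no pairing. With the replicate block 1 member was called at 4 weeks and 0 for 12 minus 4 weeks, where Scg5 had 2.36 (adjusted p = 0.0516). Leaving out each array in turn gave 0 to 3 calls at 4 weeks, 0 to 1 at 12 weeks, 1 to 2 at 30 weeks, 0 to 2 for 12 minus 4 weeks, 0 to 1 for 30 minus 12 weeks and 1 to 3 for 30 minus 4 weeks. Where that left 1 array at 4 weeks, it was assumed to vary like the other ages. Leaving out replicates 2 of 12 and of 30 weeks together, chosen after seeing the data as was the fixed slide block, gave 1 at 12 weeks, 1 at 30 weeks and 2 for 12 minus 4 weeks. Of 450 alternative values of single members 402 stayed within the spread of replicates or on their side of the threshold, and none that was called reversed. Leaving out 1 array cannot move the mean of an age beyond that spread. Those fits therefore count as unmoved by construction, and the count is no measure of stability. A call could also be lost while the value stayed within the spread, as for Chgb at 4 weeks. The ratio of Cpe at 30 weeks was past the threshold in all 19 settings with 1 value per gene, from −0.99 to −0.58, and that of Scg5 at 4 weeks in 18 of 19, from −2.44 to −1.04. Scg2, Pcsk1 and the wild-type channel of Chgb were near background. The cause of the moves was not tested.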
